A study of Homo sapiens with 4 samples.

Results

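The 7 genes described here, HMGCS1, SQLE, FDFT1, FDPS, LSS, CYP51A1 and DHCR7, encode enzymes of cholesterol synthesis. They were chosen by gene symbol as targets of the transcription factor SREBP2 that have been reported to depend on TDP-43, an RNA-binding protein. All 7 were found among the 77973 genes of the deposited gene table, and all 7 passed the minimum of 20 reads on average over the libraries that left 8145 genes for testing. No uptake receptor is among the 7. Transcripts were sequenced by PacBio Iso-Seq, which reads complementary DNA copies of polyadenylated RNA in long single reads. The cells were cortical neurons, made with doxycycline-driven NGN2 (2 µg/mL) from the established human stem cell line KOLF2.1J. Every library came from a CRISPR interference version of that line, which produces a dCas9-BFP-KRAB repressor at all times. Each group had 1 library. The cells carried a lentiviral guide RNA that either had no target, as in the control, or was directed at the gene of TDP-43, as in the knockdown. The azacytidine library was labelled as control cells grown with 5-azacytidine (5 µM, 72 hours), which blocks DNA methylation. The combined library had both the TDP-43 guide and the drug. The guide-bearing cells were selected pools of a single parent line, they were plated on day 8, and the day of harvest is given as 12 or 15 without saying which applied to these libraries.

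Cholesterol is built from acetyl-CoA through the mevalonate pathway. HMGCS1 joins acetyl units at the head of that pathway, FDPS makes farnesyl diphosphate, and FDFT1 (squalene synthase) commits it to sterols. SQLE then oxidises squalene, LSS closes the ring to give lanosterol, CYP51A1 removes a methyl group from lanosterol, and DHCR7 catalyses the last step to cholesterol in one branch of the pathway. When sterols run low, SREBP2, the product of SREBF2, is carried by SCAP to the Golgi, cleaved there, and raises transcription of these genes and of genes of cholesterol uptake. Neurons in the adult brain take much of their cholesterol from astrocytes, and young neurons make more of their own.

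The libraries held between 466337 and 767621 reads assigned to genes. Levels are given as CPM of the effective library size, which is the library's total scaled by its TMM factor. TARDBP, the gene of TDP-43, was counted with 104 reads for the control, 72 for the knockdown, 73 for the azacytidine and 43 for the combined library. Its log2 ratio was -0.67 without azacytidine (adjusted p = 0.017, exact binomial test) and -0.73 with it (adjusted p = 0.0573, same test). The second pair did not pass the threshold used below. TARDBP reads assigned to a transcript, a division explained below, were 47 against 86 without azacytidine and 29 against 62 with it. Their levels were 49.4% and 47.7% of the reference. TARDBP reads on no transcript were 25 against 18 and 14 against 11. The targeted gene was thus lower in both pairs, more so on transcripts, and not lost. All 8 neuronal markers examined had reads, with a summed level between 1766 and 2473 CPM. They did not move together, so the sum does not stand for each marker. MAP2 was at 871 and 1110 CPM without azacytidine, against 646 and 334 CPM in the azacytidine and combined libraries. RBFOX3 went the other way, with 56.5 and 56.9 CPM against 182 and 270 CPM. Pluripotency markers (5 of 5 detected) summed to 290 and 350 CPM, against 229 and 270 CPM with azacytidine. LIN28A made up most of that sum, at 208 and 292 CPM against 200 and 250 CPM. Markers of proliferating cells (6 of 6 detected) summed to 939 and 953 CPM in the control and knockdown libraries, and to 68.8 and 55.7 CPM in the azacytidine and combined libraries. Markers of neural progenitors (6 of 6) summed to 739 and 676 CPM, against 164 and 130 CPM with azacytidine. PAX6 made up most of the progenitor sum without the drug, at 468 and 457 CPM, against 6.07 and 8.25 CPM with it. VIM was at 98.4 and 74.4 CPM against 42.5 and 14.4 CPM. NES moved less, with 103 and 77.3 CPM against 72.9 and 86.7 CPM, so the list did not fall evenly. Astrocyte markers summed to 50.01 and 48.2 CPM without the drug, 2.02 CPM with azacytidine and 0 in the combined library. SLC1A3 held 29 of the 31 astrocyte marker reads in the control and 24 of the 33 in the knockdown library. It had 0 reads in the azacytidine and combined libraries. ALDH1L1 had 8 reads in the knockdown library, GFAP and S100B had at most 1 in any library, and AQP4 had 0 in all 4. The astrocyte sum thus mostly followed 1 gene and does not show whether astrocytes were present. In RNA from whole cultures, fewer cells of a type and less RNA per cell cannot be told apart.

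Promoter sequences from RefSeq (GRCh38.p14) covered 5 of the 7 genes, and 3 of them are shown here beside that of SREBF2. They are shown because these genes are regulated together through their promoters and because azacytidine blocks DNA methylation, which occurs at CG dinucleotides. Each window runs from 250 bases before to 50 bases after an annotated start and is written in the direction of the gene. The windows are chr5:43313363-43313662 (minus strand) for HMGCS1, chr21:46228725-46229024 (minus strand) for LSS, chr11:71448344-71448643 (minus strand) for DHCR7 and chr22:41832855-41833154 (plus strand) for SREBF2. The HMGCS1, LSS and DHCR7 windows belong to the starts of HMGCS1-201, LSS-202 and DHCR7-201. Capitals mark matches on either strand to CCAAT (the NF-Y box), to GGGCGG (the GC box of Sp1) and to TCACNCCAC, a form of the sterol regulatory element. Matches that overlap are each marked.
HMGCS1: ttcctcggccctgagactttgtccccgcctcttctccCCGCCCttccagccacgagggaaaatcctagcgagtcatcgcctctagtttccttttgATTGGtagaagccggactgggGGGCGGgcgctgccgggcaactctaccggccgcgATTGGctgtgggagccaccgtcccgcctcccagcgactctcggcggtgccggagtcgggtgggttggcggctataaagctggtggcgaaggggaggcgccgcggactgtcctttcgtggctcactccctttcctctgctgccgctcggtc
LSS: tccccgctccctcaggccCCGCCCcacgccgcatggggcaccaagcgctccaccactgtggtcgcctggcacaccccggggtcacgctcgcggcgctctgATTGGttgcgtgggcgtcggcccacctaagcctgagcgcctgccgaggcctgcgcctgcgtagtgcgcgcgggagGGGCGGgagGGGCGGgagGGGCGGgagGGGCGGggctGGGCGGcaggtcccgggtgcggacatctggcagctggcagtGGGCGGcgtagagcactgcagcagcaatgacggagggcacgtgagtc
DHCR7: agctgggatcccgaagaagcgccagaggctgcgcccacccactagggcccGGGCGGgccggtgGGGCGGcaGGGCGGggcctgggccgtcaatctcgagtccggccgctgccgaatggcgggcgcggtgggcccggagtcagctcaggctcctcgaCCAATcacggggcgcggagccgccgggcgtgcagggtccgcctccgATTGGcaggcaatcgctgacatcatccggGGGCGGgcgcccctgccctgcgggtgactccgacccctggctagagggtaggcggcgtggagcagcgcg
SREBF2: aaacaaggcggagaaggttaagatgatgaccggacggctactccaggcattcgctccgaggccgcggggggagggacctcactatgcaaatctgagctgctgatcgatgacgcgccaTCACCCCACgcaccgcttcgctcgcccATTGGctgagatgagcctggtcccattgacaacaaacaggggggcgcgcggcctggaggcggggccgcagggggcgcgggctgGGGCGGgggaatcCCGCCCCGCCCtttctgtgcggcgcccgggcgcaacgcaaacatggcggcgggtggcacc
CCAAT occurred 2 times in the HMGCS1 window, 1 time in that of LSS, 2 times in that of DHCR7 and 1 time in that of SREBF2, and 34.6% of all 35116 RefSeq promoters of this length held it. GGGCGG occurred 2, 7, 4 and 3 times in the same order, against a match in 44.95% of all promoters. TCACNCCAC matched 1 time in the SREBF2 window and in none of the windows available for the 5 enzymes. It was present in 1.13% of all promoters. The windows held 28 CG dinucleotides for HMGCS1, 32 for LSS, 36 for DHCR7 and 31 for SREBF2, above the median of 14 over all promoters. The other windows of the enzymes belong to FDPS, CYP51A1 and a second start each of HMGCS1 and DHCR7. In that order they held CCAAT 3, 0, 0 and 0 times, GGGCGG 1, 1, 2 and 0 times, and 27, 24, 27 and 12 CG dinucleotides, so that the second DHCR7 window was below the median. No methylation was measured in these libraries.

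For each enzyme, the 95% Poisson intervals of the gene level were compared between the highest and the lowest of the 4 libraries. They did not overlap for HMGCS1, SQLE and LSS and did overlap for FDPS, FDFT1, CYP51A1 and DHCR7. Picking the extremes of 4 libraries favours intervals that do not overlap. How many of all genes tested did the same was not counted, so this does not set these enzymes apart. HMGCS1 (chromosome 5, 43287470 to 43313512, minus strand, hg38) had 230 reads in the control, 210 in the knockdown, 110 in the azacytidine and 118 in the combined library. These are 371, 306, 223 and 243 CPM, so the libraries without the drug were the higher ones, and the intervals ran from 183 to 268 CPM with azacytidine and from 325 to 422 CPM in the control. FDPS (chromosome 1, 155308748 to 155320666, plus strand) had 48, 30, 37 and 20 reads, in the order just given. Its level was 77.4 and 74.9 CPM in the control and azacytidine libraries and 43.8 and 41.3 CPM in the libraries with the TDP-43 guide. FDFT1 (chromosome 8, 11795573 to 11839395, plus strand) had 96, 85, 84 and 59 reads, which are 155, 124, 170 and 122 CPM. For FDPS and FDFT1 both libraries of the TDP-43 guide were below both others, and the intervals of neighbouring libraries in the order of levels overlapped.

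Among the later enzymes, SQLE (chromosome 8, 124998497 to 125022283, plus strand) had 87 reads in the control, 106 in the knockdown, 53 in the azacytidine and 39 in the combined library, or 140, 155, 107 and 80.5 CPM. The combined library was the lowest for SQLE and the knockdown library the highest. LSS (chromosome 21, 46188141 to 46228824, minus strand) had 148, 242, 171 and 206 reads. Its level of 239 CPM in the control was below those of the other libraries, which were 353, 346 and 425 CPM in the same order. LSS was the enzyme among the 7 whose control library was the lowest. CYP51A1 (chromosome 7, 92084987 to 92134803, minus strand) had 101, 94, 82 and 58 reads, or 163, 137, 166 and 120 CPM. DHCR7 (chromosome 11, 71428193 to 71452868, minus strand) had 35, 32, 34 and 24 reads, or 56.5, 46.7, 68.8 and 49.5 CPM. For both, the azacytidine and control libraries were above the libraries with the TDP-43 guide, and the intervals of neighbouring libraries in that order overlapped. Summed over the 7 genes, the level was 1202 CPM in the control, 1166 in the knockdown, 1155 in the azacytidine and 1081 in the combined library.

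**Figure D1:**
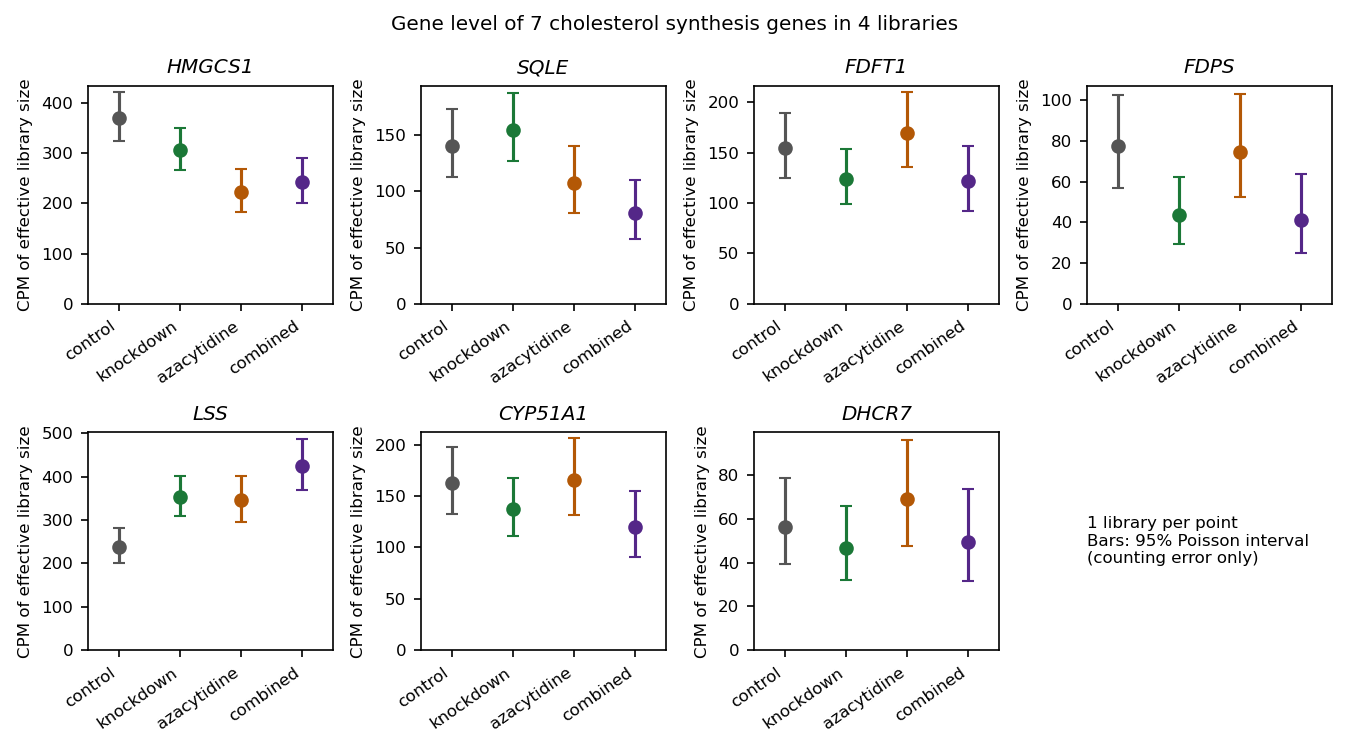
Level of each of the 7 enzyme genes in the 4 libraries (x axis), in CPM of effective library size (y axis, from 0), 1 library per point, with 95% Poisson intervals for counting error only. LSS was lowest in the control at 239 CPM, HMGCS1 was highest there at 371 CPM, and FDPS sat at 43.8 and 41.3 CPM in the libraries with the TDP-43 guide.

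Whether these genes differ with TDP-43 was asked in 2 pairs that share no library, knockdown against control and combined against azacytidine. A two-sided exact binomial test with Benjamini-Hochberg adjustment over the 8145 genes was used. With 1 library per group, its p-values speak for 2 libraries and not for the conditions. Without azacytidine, 1 of the 7 enzymes passed an adjusted p of 0.05, while 20.1% of all genes tested did (16.4% higher, 3.73% lower). That gene was LSS, the lanosterol synthase, which was higher in the knockdown library with a log2 ratio of 0.56 (95% interval 0.26 to 0.87, adjusted p = 0.0020, exact test). The LSS ratio was 0.34 (adjusted p = 0.110) when libraries were scaled by their totals instead of TMM factors, a change that moved the median log2 ratio of all genes from 0.18 to -0.044. It was 0.37 (adjusted p = 0.0818) with the trend on transcript length removed.

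The other 6 enzymes did not pass in this pair with TMM scaling. FDPS had the lowest ratio, -0.81 (-1.53 to -0.14), a level at 56.5% of the control (unadjusted p = 0.0167, adjusted p = 0.0734, exact test). HMGCS1 stood at 82.6% of the control (log2 -0.28, unadjusted p = 0.0451, adjusted p = 0.151, exact test). The ratios of FDFT1, CYP51A1 and DHCR7 were -0.32, -0.25 and -0.27. That of SQLE was 0.14 with TMM scaling and -0.084 with total counts. With total counts HMGCS1 and FDPS passed in place of LSS, with ratios of -0.50 (adjusted p = 0.00427, exact test) and -1.04 (adjusted p = 0.0175, exact test). With DESeq2 size factors HMGCS1, FDPS and LSS all passed. Of all genes tested, 15.5% passed with total counts and 16.8% with DESeq2 size factors. The share of higher genes among all genes that passed moved from 81.5% with TMM to 49.8% with total counts and 69.3% with DESeq2 size factors.

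With azacytidine in both libraries, 0 of the 7 enzymes passed, against 15.0% of all genes, and 1 of 7, FDPS, had an unadjusted p under 0.05. FDPS was at 55.1% of its reference library, with a log2 ratio of -0.84 (-1.72 to -0.037, unadjusted p = 0.0336, adjusted p = 0.142, exact test). The size of the FDPS ratio was thus close to that of the first pair, on 37 and 20 reads. FDFT1, CYP51A1 and DHCR7 were at 71.6%, 72.1% and 72.0% of the azacytidine library, with adjusted p-values between 0.196 and 0.486 by the exact test. SQLE was at 75.0%, HMGCS1 at 109% and LSS at 123%. In each knockdown pair 5 of the 7 ratios were below 0, with a median of -0.27 without azacytidine and -0.47 with it, beside medians of 0.18 and 0.048 over all genes tested. Of the 8145 genes tested, 2894 were below 0 without azacytidine and 3778 with it.

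A gene was called for a treatment when it passed the test with an absolute log2 ratio of at least 1 in the same direction in both of its pairs. For the knockdown, 0 of 7 enzymes were called, beside 0.970% of all genes. In additive models over the 4 libraries, with the interaction as error, 0 of 7 passed for the knockdown by edgeR's quasi-likelihood test and by DESeq2's Wald test, which passed 0.0368% and 0.0859% of all genes (3 and 7 of 8145). At an unadjusted p under 0.05 the numbers were 1 and 0 of 7. The edgeR model gave FDPS a log2 ratio of -0.84 (adjusted p = 0.523). Whether the knockdown ratio differed between the backgrounds was tested with an exact test of the 4 read numbers of a gene. None of the 7 enzymes passed it (10.6% of all genes did), and none had an unadjusted p under 0.05. The lowest p was that of HMGCS1, with a difference of 0.40 on the log2 scale (-0.075 to 0.89, unadjusted p = 0.0870, adjusted p = 0.314, exact test). SQLE had the larger difference, -0.55 (-1.33 to 0.21, unadjusted p = 0.163, adjusted p = 0.449, exact test).

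**Figure D2:**
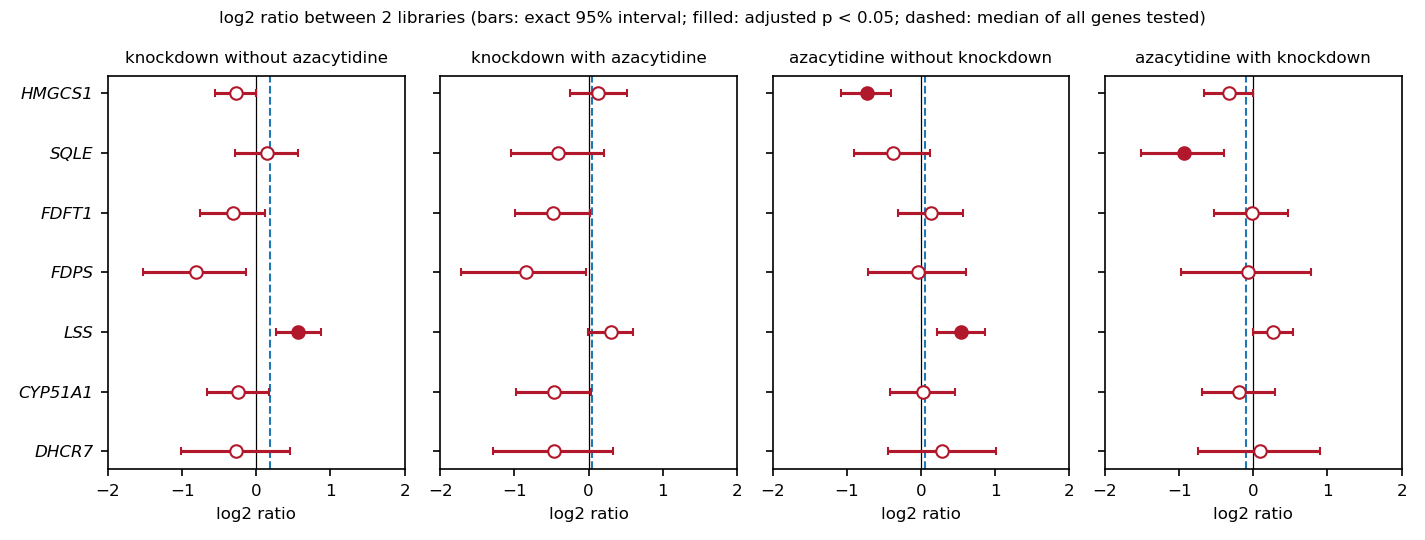
Log2 ratio of each enzyme gene (x axis) in the 4 pairs of libraries, with exact 95% intervals for counting error. Filled points passed an adjusted p of 0.05 and the dashed line is the median of all 8145 genes tested. LSS passed in 2 pairs, HMGCS1 and SQLE in 1 each, and the FDPS points sit at -0.81 and -0.84 in the knockdown pairs.

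Azacytidine was compared in the same way, against the control and, with the TDP-43 guide in both libraries, against the knockdown. These pairs reuse the libraries of the knockdown pairs. Without the knockdown, 2 of 7 enzymes passed, beside 26.0% of all genes (12.2% higher, 13.8% lower). HMGCS1 was lower in the azacytidine library, at 60.0% of the control (log2 -0.73, -1.08 to -0.40, adjusted p = 8.8e-05, exact test). LSS was higher, at 145% (log2 0.53, 0.21 to 0.86, adjusted p = 0.0065, exact test). With the knockdown, 1 of 7 passed, beside 42.3% of all genes. SQLE, the squalene epoxidase, was at 52.0% of the knockdown library (log2 -0.93, -1.51 to -0.40, adjusted p = 0.0015, exact test). HMGCS1 was at 79.4% (adjusted p = 0.102) and LSS at 120% (adjusted p = 0.111) in that pair, by the same exact test. LSS passed there with total counts (log2 0.45, adjusted p = 0.00397) and with DESeq2 size factors (log2 0.33, adjusted p = 0.0444).

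The remaining enzymes did not pass with azacytidine. FDFT1, FDPS, CYP51A1 and DHCR7 had log2 ratios of 0.14, -0.044, 0.028 and 0.29 without the knockdown, and of -0.023, -0.074, -0.19 and 0.092 with it. The signs of the FDFT1, FDPS and CYP51A1 ratios changed with the scaling in at least 1 pair. Ratios below 0 were seen in 3 of the 7 enzymes without the knockdown and 5 of 7 with it, beside 3810 and 4447 of 8145 genes. For azacytidine, 0 of 7 enzymes were called in both pairs, beside 9.80% of all genes. In the additive models 0 of 7 passed for azacytidine by edgeR, beside 10.3% of all genes, and 0 of 7 by DESeq2, beside 3.29%, and 1 and 0 of 7 had an unadjusted p under 0.05. When the libraries were paired crosswise, as a level of the rule for neither treatment, 0 of 7 were called, beside 0.540%. In both azacytidine pairs, 6 of 6 proliferation markers passed as lower, and 2 and 3 of the 4 progenitor markers tested did. The part of these cells in the enzyme ratios was not tested.

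A gene's reads can be divided into those that the authors' program assigned to a transcript of the gene and those that it assigned to the gene alone. This division was examined after the gene results were seen. It showed that the enzyme ratios that passed, apart from that of LSS with azacytidine, lay mostly in reads on no transcript. In the knockdown library LSS had 83 reads on a transcript and 159 on none, and in the control it had 79 and 69. The LSS level on transcripts was 95.04% of the control (log2 -0.074, -0.54 to 0.39), and the level on none was 208% (log2 1.05, 0.64 to 1.49). The share of LSS reads on a transcript was 34.3% in the knockdown and 53.4% in the control library (adjusted p = 0.00602, Fisher's exact test). With azacytidine in both libraries, LSS had 87 reads on a transcript and 119 on none, against 92 and 79 (adjusted p = 0.203, Fisher's exact test). The knockdown library of each LSS pair was thus higher in reads on no transcript, at 208% and 154%, and was at 95.04% and 96.4% of its reference on transcripts. The transcript reads include those of LSS-208, a short model described below. It had 17 reads in the knockdown against 4 in the control, and 7 in the combined against 8 in the azacytidine library.

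HMGCS1 and SQLE showed the same division in the azacytidine pair in which each passed as lower. HMGCS1 had 89 reads on a transcript and 21 on none in the azacytidine library, against 133 and 97 in the control. These HMGCS1 levels are 83.9% of the control on transcripts (log2 -0.25, -0.66 to 0.15) and 27.2% on none (log2 -1.85, -2.64 to -1.19), and the share on a transcript was 80.9% against 57.8% (adjusted p = 0.00149, Fisher's exact test). In the combined library SQLE had 35 reads on a transcript and 4 on none, against 59 and 47 in the knockdown library. On transcripts SQLE was at 83.9% (log2 -0.25, -0.90 to 0.37) and on none at 12.0% (log2 -2.90, -4.99 to -1.60), with a share of 89.7% against 55.7% (adjusted p = 0.00256, Fisher's exact test). HMGCS1 with the knockdown did not pass and was at 82.6% on transcripts and 73.6% on none (adjusted p = 0.963 for the share, Fisher's exact test). SQLE without the knockdown did not pass either, at 89.6% and 41.8% (adjusted p = 0.414 for the share, Fisher's exact test). LSS without the knockdown, which passed, was different, since it was at 146% on transcripts and 144% on none in the azacytidine library.

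In 2 enzymes whose total did not pass, the division still differed. CYP51A1 had 39 reads on a transcript and 19 on none in the combined library, against 73 and 9 with azacytidine alone (67.2% against 89.0% on a transcript, adjusted p = 0.0406, Fisher's exact test). FDFT1 had 44 and 15 reads in the combined library, against 42 and 43 in the knockdown library (74.6% against 49.4%, adjusted p = 0.0398, Fisher's exact test). Over all genes tested this share differed in 10.3% and 6.29% of genes in the knockdown pairs and in 6.56% and 9.10% in the azacytidine pairs. For the enzymes the numbers were 1 and 1 of 7, then 1 and 2 of 7, so they were few in each pair. Summed over the 7 genes, the share on a transcript was 64.3% in the control, 55.1% in the knockdown, 72.7% in the azacytidine and 59.7% in the combined library. Over all genes tested it was 65.1%, 59.9%, 68.5% and 60.9%, which is the same order of libraries.

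On transcripts alone, the 7 enzymes were all below their reference in both knockdown pairs, with medians of -0.31 and -0.33 on the log2 scale. Of all genes tested, 42.8% were below 0 by this measure without azacytidine (median 0.077) and 55.7% with it (median -0.075). FDPS had 17 transcript reads against 28 and 7 against 22, or 54.9% and 32.4% of its reference. FDFT1 had 42 against 60 and 44 against 68, or 63.3% and 66.0%, and CYP51A1 had 75 against 84 and 39 against 73, or 80.8% and 54.5%. HMGCS1 was at 93.2% and 91.6%, SQLE at 84.7% and 79.3%, and DHCR7 at 76.3% and 82.3%. When transcript sums were scaled by their own TMM factors and tested, 6 of the 7 enzymes had enough reads and 0 of 6 passed in any pair. Fewer of all genes passed by this measure too, 4.20% and 3.43% in the knockdown pairs without and with azacytidine and 11.6% and 25.8% in the azacytidine pairs without and with the knockdown. The ratios of HMGCS1 and LSS with azacytidine were then 0.0098 and 0.083, so the common direction did not hold for them. The count is therefore a description that depends on the scaling.

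**Figure D3:**
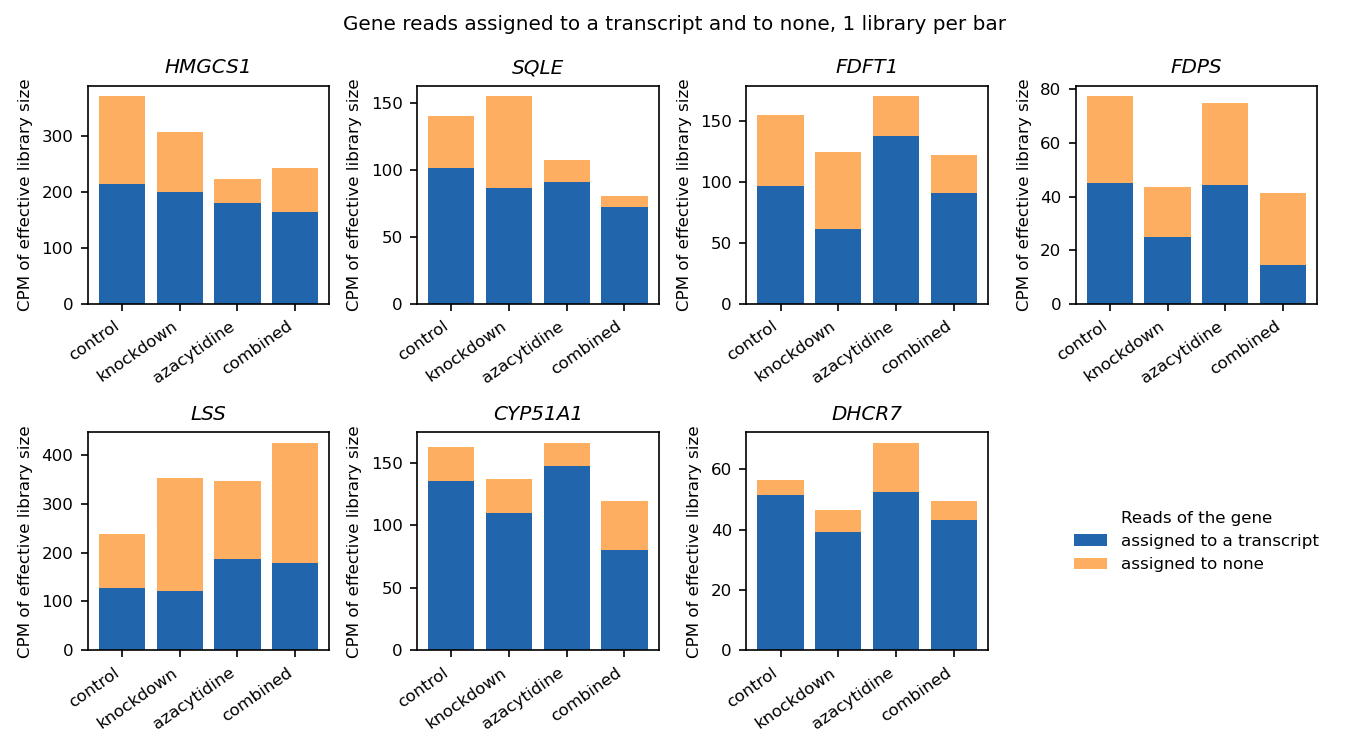
Level of each enzyme gene in the 4 libraries, divided into reads assigned to a transcript (blue) and to none (orange), as stacked bars in CPM of effective library size (y axis from 0). The orange part of LSS grew from 69 reads in the control to 159 in the knockdown library, and that of SQLE shrank from 47 reads in the knockdown to 4 in the combined library.

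Which transcripts the enzymes used was compared by the share of each transcript among the gene's transcript reads. Of 15791 transcripts tested, 18 belonged to 6 of the enzymes, and FDPS had too few transcript reads. None of the 18 was called in both pairs, whether for the knockdown (0.703% of all transcripts tested), azacytidine (1.09%) or crosswise (0.526%). In a single pair, 1 of the 18 passed an adjusted p of 0.05, beside 7.47% of all transcripts in that pair. This was LSS-201, which had 32 of 87 LSS transcript reads in the combined library (36.8%) and 10 of 84 in the knockdown library (11.9%, adjusted p = 0.00461, Fisher's exact test). The LSS-201 share was 22.8% in the control, with 18 reads. LSS-208, a model of 2 exons annotated as retaining an intron, which covers only the end of the gene (46189125 to 46193370), had 4 reads in the control, 17 in the knockdown, 8 in the azacytidine and 7 in the combined library, and did not pass (adjusted p = 0.0595 for the knockdown without azacytidine, Fisher's exact test).

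LSS-202 had 33, 37, 39 and 20 reads and LSS-205 had 18, 13, 17 and 20.

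One transcript led in SQLE, CYP51A1 and FDFT1. SQLE-201 had 61 of 63 SQLE transcript reads in the control and 59 of 59 in the knockdown library. CYP51A1-201 had 74, 66, 65 and 36 reads in the 4 libraries, and FDFT1-201 had 44, 31, 48 and 34. Next came CYP51A1-203, with 10, 9, 7 and 3 reads, and FDFT1-209, with 8, 2, 5 and 1. FDPS reads were spread over several forms, with 5, 1, 5 and 1 for FDPS-203, 5, 2, 5 and 1 for FDPS-206 and 5, 3, 4 and 1 for FDPS-221. FDPS-202 and FDPS-201 had 2, 2, 3 and 2 and 2, 2, 3 and 0 reads. HMGCS1 was divided between HMGCS1-202, with 47, 33, 36 and 33 reads, and HMGCS1-201, with 43, 52, 27 and 23 reads. The annotation lists a model with the same exons as HMGCS1-201 (ENST00000715988.1), and reads were split equally between these, so neither had reads of its own.

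DHCR7 was read from several starts. DHCR7-205, whose first exon lies downstream (start at 71448071), had 12 of 30 DHCR7 transcript reads in the control and 5, 2 and 0 reads in the knockdown, azacytidine and combined libraries. DHCR7-201, whose start (71448393) is that of the promoter window shown above, had 5, 10, 14 and 12 reads. DHCR7-202 had 5, 3, 2 and 2 reads and ENST00000683287.1 had 1, 1, 3 and 1. The numbers of DHCR7-205 and DHCR7-201 ran in opposite directions and did not pass without the knockdown (adjusted p = 0.0848 for DHCR7-205 and 0.0708 for DHCR7-201, azacytidine against control, Fisher's exact test). Of the reads given to DHCR7-205, 0, 0, 1 and 0 fit that transcript alone, and of those given to DHCR7-201, 1, 3, 8 and 4 did, so the division between them is an estimate.

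Unannotated transcripts were few. FDFT1 had BambuTx5225, with 4, 4, 4 and 2 reads, whose intron from 11826216 to 11831517 is in no annotated transcript of the gene and spans exons that annotated ones use. FDPS had BambuTx403, a 5-exon form starting at 155316331 inside the gene, with 7 reads in the control, 7 in the knockdown and 1 each in the azacytidine and combined libraries. DHCR7 had BambuTx1052, with 1, 4, 3 and 3 reads, which holds no intron that annotated forms lack. Neither FDFT1 nor DHCR7 forms passed in any pair, and FDPS was below the minimum for testing. No unannotated transcript was listed for HMGCS1, SQLE, LSS or CYP51A1.

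**Figure D4:**
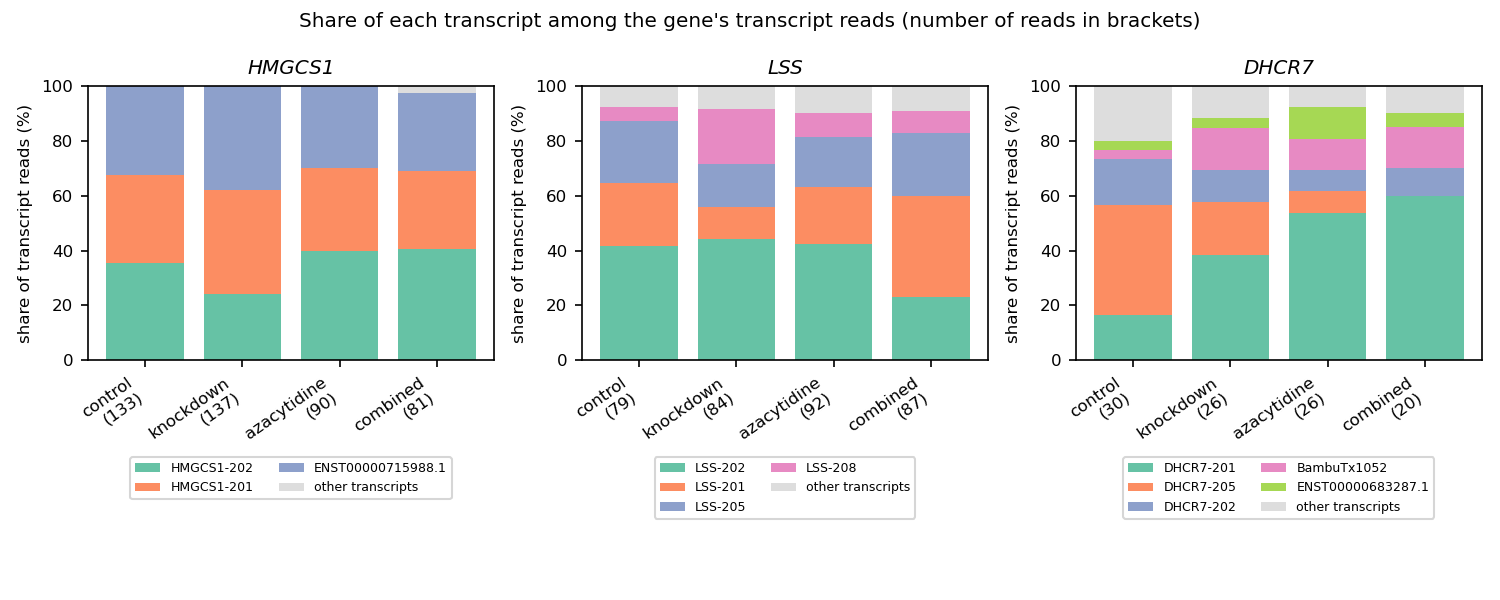
Share of each transcript among the transcript reads (y axis, percent) of HMGCS1, LSS and DHCR7 in the 4 libraries, with the number of reads in brackets. LSS-201 took 11.9% in the knockdown and 36.8% in the combined library, and DHCR7-205 went from 12 reads in the control to 0 in the combined library.

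Genes that overlap the enzymes or copy their sequence are given because the use of strand in counting was not stated, and their part in the counts was not tested. AKAP9, on the opposite strand of CYP51A1, had 190, 511, 206 and 150 reads in the 4 libraries. NADSYN1 overlaps DHCR7 with 34, 31, 21 and 30 reads, and MCM3AP-AS1 overlaps LSS with 18, 14, 8 and 8. CYP51A1-AS1 had 7, 5, 4 and 1 reads, and RUSC1-AS1, which overlaps FDPS, had 2, 1, 3 and 6. Other overlapping genes, which have an identifier and no symbol, had at most 4 reads in a library. Processed copies held few reads, with at most 1 per library for each copy of FDPS and CYP51A1. TDP-43 binds repeats of TG in RNA, and TGTGTGTG was searched in the spliced sense strand of 1 annotated transcript per enzyme. These transcripts were HMGCS1-202, SQLE-201, FDFT1-201, FDPS-221, LSS-202, CYP51A1-201 and DHCR7-201. HMGCS1-201 is longer (5350 against 3466 bases), extends further at the 3′ end and, counted with its identical model, had more reads than HMGCS1-202. HMGCS1-201 was not searched. TGTGTGTG occurred in CYP51A1-201 and in none of the other 6, and in 17.0% of annotated transcripts of a length like that of CYP51A1-201. The match lies in exon 10, in the 3′ UTR, at chr7:92113202-92113231 (minus strand), shown with the repeat in capitals.
CYP51A1: gggcaattatTGTGTGTGTGaggatggaag
A match is a description of the sequence, and binding was not measured.

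Of 12 other genes of cholesterol synthesis listed, 8 were tested. Over all genes tested, 20.1% and 15.0% passed in the knockdown pairs without and with azacytidine. In the azacytidine pairs 26.0% and 42.3% passed without and with the knockdown. Without azacytidine, 0 of the 8 passed with the knockdown, and their median log2 ratio was -0.26. With azacytidine, 1 of 8 was lower with the knockdown. This was TM7SF2, a sterol reductase, with 76 reads against 35 (log2 -1.08, adjusted p = 0.0028, exact test). Azacytidine gave 1 higher without the knockdown, TM7SF2 (57 against 76 reads, log2 0.74, adjusted p = 0.0186, exact test). With the knockdown it gave 1 higher and 2 lower. MVK, the mevalonate kinase, was higher (23 against 33 reads, log2 1.01, adjusted p = 0.0255, exact test). SC5D, the sterol desaturase, was lower (53 against 18 reads, log2 -1.03, adjusted p = 0.0157, exact test). The other was MSMO1, a sterol methyl oxidase (107 against 43 reads, log2 -0.81), named after its values were seen.

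Of 11 uptake and transport genes, 9 were tested, and 4 of them passed in each azacytidine pair (2 higher and 2 lower in each). Of all genes tested, 26.0% passed in these pairs without the knockdown and 42.3% with it. With the knockdown, 1 was higher and 1 lower without azacytidine and 1 was higher with it, beside 20.1% and 15.0% of all genes. STARD4, a sterol carrier, had 38, 40, 16 and 4 reads (log2 -2.67 for azacytidine with the knockdown, adjusted p = 2.5e-05, exact test). LRP8, a lipoprotein receptor of neurons, had 162, 63, 56 and 70 reads, of which 16, 19, 17 and 12 were on a transcript. SCARB1, the HDL receptor, had 7, 49, 26 and 51 reads, with 6, 10, 9 and 9 on a transcript. For LRP8 and SCARB1 most of the difference between libraries was therefore in reads on no transcript. NPC1 was lower in both azacytidine pairs, LRP1 was higher in the pair without the knockdown and VLDLR in the pair with it, all named after their values were seen.

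Of 9 sterol sensing genes tested, 1 passed with the knockdown without azacytidine and 0 in the other 3 pairs. The shares over all genes given above stand beside this count and those of the lists below. They were 20.1% and 15.0% in the knockdown pairs and 26.0% and 42.3% in the azacytidine pairs. SREBF2 went from 110 control reads to 190 knockdown reads (log2 0.64, adjusted p = 0.0020, exact test), and 120 and 132 reads with azacytidine. Its reads on a transcript were 79 and 97 and those on none were 31 and 93, so the SREBF2 share on a transcript was 71.8% against 51.1% (adjusted p = 0.00786, Fisher's exact test). INSIG1, which holds the SREBP complex in the endoplasmic reticulum, had 55, 54, 42 and 23 reads and passed in no pair. In the efflux list 2 of 8 genes were tested, and ABCA1, the cholesterol exporter, was higher with the knockdown without azacytidine (26 against 65 reads, log2 1.16, adjusted p = 0.0033, exact test). Among 6 tested genes of the isoprenoid branches, COQ2, of ubiquinone synthesis, had 22, 19, 11 and 35 reads and was higher in the combined library than in the azacytidine library (log2 1.65, adjusted p = 0.0043, exact test), with 5 of its 35 reads on a transcript. Azacytidine gave 1 lower isoprenoid gene without the knockdown, PGGT1B, and 2 higher and 1 lower with it, COQ2, DHDDS and PGGT1B in that order. PGGT1B, a subunit of a protein prenyltransferase, had 61, 69, 27 and 26 reads, and DHDDS, of dolichol synthesis, had 35, 57, 44 and 63. Of 8 tested fatty acid genes, 2 were higher with the knockdown without azacytidine and 1 with it. FASN, the fatty acid synthase, was higher in both (94 against 167 and 91 against 129 reads), and ACLY, which supplies acetyl-CoA, in the first (152 against 230 reads). The higher FASN numbers lay mostly in reads on no transcript, which were at 309% and 298% of the reference in the 2 pairs, while those on a transcript were at 128% and 119%. The FASN share on a transcript was 65.3% against 81.9% without azacytidine (adjusted p = 0.0448, Fisher's exact test) and 70.5% against 85.7% with it (adjusted p = 0.101, Fisher's exact test). Azacytidine gave FADS2, a fatty acid desaturase, as higher in both pairs (73, 102, 92 and 106 reads) and ELOVL6, a fatty acid elongase, as lower with the knockdown (88, 126, 56 and 49 reads). PGGT1B, DHDDS and the fatty acid genes were named after their values were seen.

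**Figure D5:**
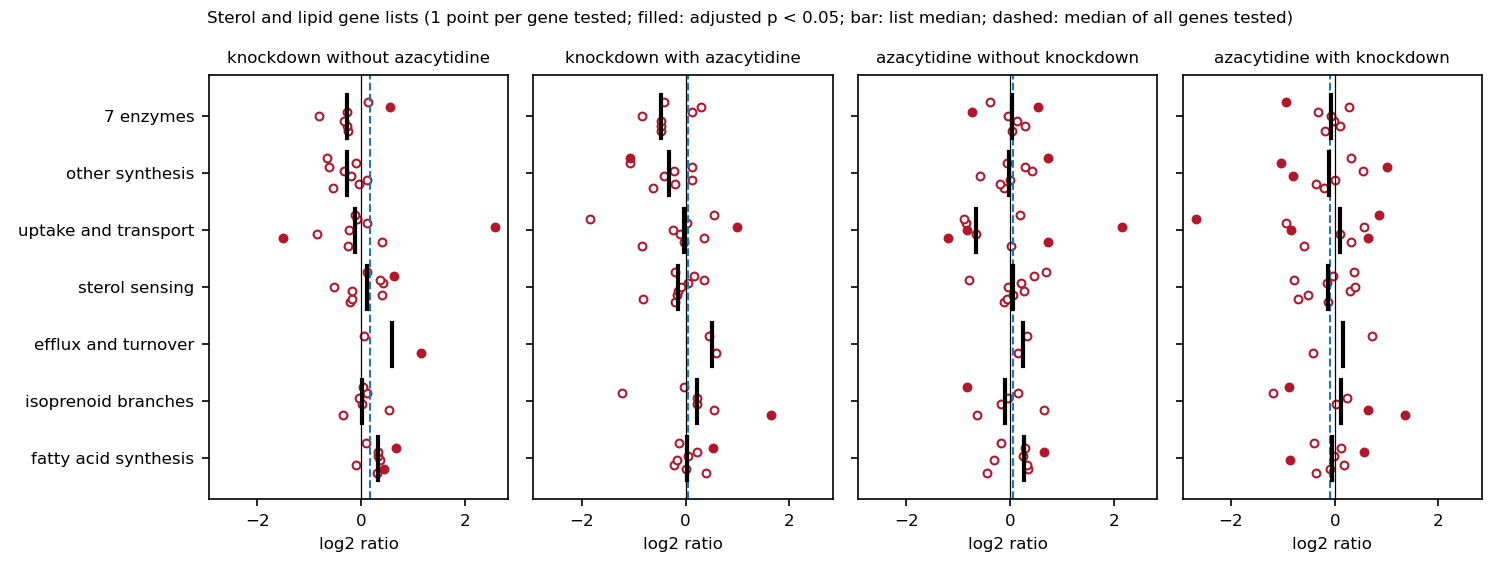
Log2 ratios (x axis) of the 7 enzymes and of 6 other lists of sterol and lipid genes in the 4 pairs, 1 point per gene tested, filled where the adjusted p was under 0.05. Bars are list medians and the dashed line is the median of all genes tested. The enzymes' median lies at -0.27 and -0.47 in the knockdown pairs, and the uptake list has the lowest azacytidine median, -0.66 without the knockdown.

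The pattern of the 7 enzymes over the 4 libraries was summarised as the mean of their log2 levels, each centred on the gene's own mean. It was 0.14 in the control, -0.039 in the knockdown, 0.11 in the azacytidine and -0.21 in the combined library. Among all genes tested outside the 7, the nearest by Euclidean distance over these 4 values were UQCRB (0.0114), BCL7C (0.0301), MIR1915HG (0.0513), STARD7 (0.0560) and CWF19L1 (0.0630). Of the enzymes themselves, CYP51A1 lay nearest to the mean, at 0.118, and LSS farthest, at 0.843, because its values ran from -0.48 in the control to 0.35 in the combined library. The mean of the 7 lay nearer to CYP51A1 and FDFT1 than to LSS. These 2 genes ranked 31 and 160 of all genes tested by distance while LSS ranked 4223. Each enzyme is part of the mean that it is compared with, so these ranks only describe the spread among the 7.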

How the data were processed

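Full-length complementary DNA of 4 libraries, 1 per group, was sequenced from induced neurons (about 300 ng of RNA each, first strand by MarathonRT, per the labels' protocols). Reads were aligned to hg38, per the submitters' processing notes, with minimap2, per the labels, and the deposited annotation names Bambu, per the file headers. Versions were not given in the sources used here. The authors deposited estimated counts per gene and per transcript, estimated counts of full-length reads, counts of uniquely assigned reads, and CPM. The deposited CPM were used only to find their denominator, the sum of the gene table. All deposited gene counts lay within 0.00031 of an even number, so counts were divided by 2 to give reads. Why they are even is not stated.

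Library sizes were scaled by TMM (edgeR 4.0.16, R 4.3.3). The 8145 genes averaging 20 reads or more were tested in pairs of libraries with the exact binomial test, two-sided (scipy 1.17.1), with Benjamini-Hochberg adjustment, and log2 ratios used a pseudocount of 0.5 reads. Transcript shares were compared by Fisher's exact test over 15791 transcripts with at least 10 reads in total, in genes with a mean of at least 20 transcript reads. A called transcript needed a change of at least 10 percentage points in both pairs. Intervals are 95% Clopper-Pearson or Poisson intervals and cover counting error only. The tests were tested on simulated data. Additive models used edgeR and DESeq2 1.42.0. Reads on no transcript were gene reads minus transcript reads. Promoters are from RefSeq (GRCh38.p14) and transcripts from GENCODE 29. Totals of 466337 to 767621 reads give the genes 20 to 242 reads per library, which limits the precision.

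Named were the 7 genes, TARDBP, INSIG1, SREBF2, any listed gene past an adjusted p of 0.05 with an absolute log2 ratio of at least 1 in a pair, the 5 genes nearest in pattern, overlapping genes and copies with reads, transcripts with at least 10% of a gene's transcript reads, and unannotated ones with at least 2 reads. Results of 2 listed genes are not reported here. The genes and lists were chosen with earlier results of these data known. Scaling, minimum, pseudocount, count type and length trend were varied.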

Additional observations from a re-analysis of the deposited data

Results flagged for a closer look

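None of the 7 enzymes, but 2 genes of the other sterol lists, had a knockdown ratio that differed between the backgrounds with and without azacytidine, by an exact test of the difference itself over the 4 read numbers. For LRP8 the log2 ratio with azacytidine minus that without was 1.85 (1.16 to 2.55, adjusted p = 2.0e-06), and for COQ2 it was 2.01 (0.61 to 3.53, adjusted p = 0.0258). These tests compare single libraries, and 10.6% of all genes tested passed. In reads on a transcript, the knockdown log2 ratios without and with azacytidine were 0.096 and -0.46 for LRP8 and -0.25 and -0.90 for COQ2. In reads on no transcript they were -1.86 and 0.59 for LRP8 and -0.53 and 4.37 for COQ2. The higher ratio with azacytidine was thus seen in the reads on no transcript and not in those on a transcript.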

How the results depend on the processing

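No paired analysis was possible because each group had 1 library, so that the groups shared 1 replicate number at most. No library could be left out of a pair for the same reason. With total counts, 2 enzymes passed for the knockdown without azacytidine and 2 for azacytidine with the knockdown, against 1 each with TMM. DESeq2 size factors gave 3 and 2, and removal of the length trend 1 and 2. With the trend removed, the enzyme that passed for the knockdown was HMGCS1 and not LSS. Of all genes tested, 20.1% and 42.3% passed in these 2 pairs with TMM and 15.5% and 42.9% with total counts. The shares were 16.8% and 42.5% with DESeq2 size factors and 14.1% and 40.6% with the trend removed. Counts that were not halved gave 3 and 4 for the knockdown without and with azacytidine and 3 for azacytidine with the knockdown, since each read then counts 2 times. With these counts 35.1%, 30.5% and 54.8% of all genes passed in the same order. Sums of transcript, full-length and uniquely assigned counts gave 0 in all 4 pairs, with 6, 5 and 4 enzymes tested, and passed 3.43 to 25.8%, 1.88 to 8.14% and 4.16 to 20.5% of all genes tested with them. The counts of enzymes called in both pairs, of the interaction and of transcripts called in both pairs were 0 under every alternative run.

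These ratios changed sign, and the cause was not tested. For the knockdown without azacytidine, SQLE was -0.084 with total counts, -0.19 with transcript sums and -0.075 with unique sums, and LSS was -0.022 with transcript sums, -0.23 with unique sums and -0.074 with reads on a transcript (an alternative chosen after seeing the data). For the knockdown with azacytidine, HMGCS1 was -0.074 with full-length and -0.053 with unique sums, and LSS -0.15 and -0.43. For azacytidine without the knockdown, FDFT1 was -0.040 with the length trend removed, LSS -0.17 with full-length sums and DHCR7 -0.091 with transcript sums. CYP51A1 was -0.031 with DESeq2 factors, -0.17 with full-length sums, -0.17 with unique sums and -0.091 with the length trend removed. For azacytidine with the knockdown, HMGCS1 was 0.56 with unique sums, FDPS 0.11 with total counts and LSS -0.84 with full-length sums. FDFT1 was 0.16 with total counts, 0.034 with DESeq2 factors, 0.53 with transcript sums and 0.44 with full-length sums. The enzymes' median stayed below 0 in both knockdown pairs under the scalings tried, and changed sign with azacytidine to -0.031 without the knockdown (DESeq2 factors) and 0.11 with it (total counts). Splits of all passing genes moved as well: for azacytidine with the knockdown, 39.7% were higher with TMM and 53.5% with total counts. At 20 to 48 reads, ratios of FDPS and DHCR7 had intervals over 1 log2 unit wide.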
